A study of Cryptomeria japonica with 72 samples.

Results

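The 6 targets described here are array sequences of Cryptomeria japonica, the Japanese cedar, whose best protein match in Arabidopsis thaliana was an auxin response factor (ARF). They were matched in the scanner files by their identifiers: reCj18826, annotated as ARF6, reCj17903, annotated as ARF19, reCj18233, annotated as ARF4, and reCj18461, reCj18260 and reCj18596, each annotated as ARF2. They are 6 of all targets on the array, of which 15559 are printed as 3 spots and 3745 as 4 spots, and 6 of the 11 that the study's supplement annotates as ARF. The supplement's 11 were drawn by the study from targets that varied among groups of base and middle on these same arrays, so counts of change in those parts are no independent evidence that ARF targets change.

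ARFs are transcription factors that bind auxin response elements in the promoters of auxin-responsive genes. When auxin is low, Aux/IAA proteins bound to ARFs hold these promoters in check, and auxin releases them by having the Aux/IAA proteins degraded. In A. thaliana, ARF6 and ARF19 belong to the activators and ARF2 and ARF4 to the repressors. Auxin is the main hormone that starts adventitious roots, which grow from stems and other organs that are not roots.

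The material was cuttings of a single clone, Tsukuba 1, whose donor trees were 18 years old, set in soil in a greenhouse, so that the values describe 1 genotype. From 3 cuttings at each time, a short length of the stem base (base, below ground), of the stem above ground (middle) and of a shoot with its needles (needles) was taken. The 8 times were 0 hours after excision (0 hpe), 0 and 3 hours after insertion into soil (0 hpi and 3 hpi), 1 and 3 days (1 dpi and 3 dpi) and 1, 3 and 6 weeks after insertion (1 wpi, 3 wpi and 6 wpi). By the study's methods 0 hpi came hours after excision, so the step from 0 hpe to 0 hpi covers time after cutting. The bases taken at 6 wpi had rooted. This gave 24 groups of 3 samples and 72 arrays, each hybridized with the Cy3-labelled cRNA of 1 sample.

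Levels are given on the log2 scale relative to the 75th percentile of the signal on the same array, so that 0 equals that percentile and a difference of 1 is a doubling. A difference was called when its adjusted p in the limma fit was below 0.05 and its size was at least 1. Calls lost under another setting are named beside each result, where normexp is a background correction fitted to the median spot signals, chosen after the data were seen, quantile is a normalization that gives all arrays one distribution, and "only the arrays compared" is a fit without the other groups. Some differences not called were called under another setting, and only part of these are named. Targets whose spots were all well above background and unflagged on every array formed list 1, which held 9592 targets for base and middle, 12523 for needles and 9175 for all arrays together. reCj18461 was outside list 1 for base and middle because on 1 array of base at 1 wpi its spots were not well above background, and reCj18596 was outside list 1 for needles because of 1 flagged spot. Both were tested on list 2, which asked for positive and significant spots and held 12004, 13530 and 11454 targets. The replicate spots of the 6 targets agreed closely, with a median SD between the spots of an array from 0.0546 for reCj18233 to 0.124 for reCj18260 on the log2 scale, and none was saturated.

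The share of spots well above background ran from 66.0% to 86.9% over the base arrays, from 76.4% to 85.6% over the middle arrays and from 73.1% to 83.9% over the needle arrays. The arrays lay on 9 slides, 6 with base and needles together and 3 with middle only, so that slide and part cannot be told apart for base against middle (the estimated correlation within slides was 0.00456 over list 1, so a fit with slide as a random block is close to the fit without it). The parts were checked against markers. All 4 photosynthesis targets were well above background in every group, and their summed level, in units of the 75th percentile, was 134 to 384 in needles, fell at the base from 157 to 260 at 0 hpe to 1.85 to 6.82 at 6 wpi, and was 34.0 to 344 in the middle. Of 3 targets annotated as regulators of root patterning, the SHORT-ROOT targets reCj23597 and reCj24821 were higher in the rooted bases than at 0 hpe by 1.56 and 1.08 on the log2 scale (adjusted p of 0.000768 and 0.0106 in limma), and the SCARECROW target reCj20794 was lower, with a difference of -3.05 (adjusted p = 1.72e-06). Their summed level, most of which was reCj20794 at 0 hpe and in needles, was 2.54 to 3.06 at 0 hpe, 0.573 to 1.02 in the rooted bases and 2.51 to 7.42 in needles, so that the sum did not mark the rooted bases.

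The sequences at hand for these targets are the primers with which the study measured reCj18260 and reCj18826 by quantitative PCR. They are shown because these are the ARF2 and ARF6 targets that moved in opposite directions at the base. They are printed 5′ to 3′, in lower case.
reCj18260 (ARF2) forward: aaggcacgctgatgaatgtct
reCj18260 (ARF2) reverse: tctttggccgctagctcttg
reCj18826 (ARF6) forward: aggtgcctcaatacagagctttg
reCj18826 (ARF6) reverse: cagctacctgttcgctatgtcctt
The primers of reCj18260 are 21 and 20 bases long and those of reCj18826 are 23 and 24 bases long, with a G and C content of 47.6% and 55.0% for reCj18260 and of 47.8% and 50% for reCj18826.

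**Figure D1:**
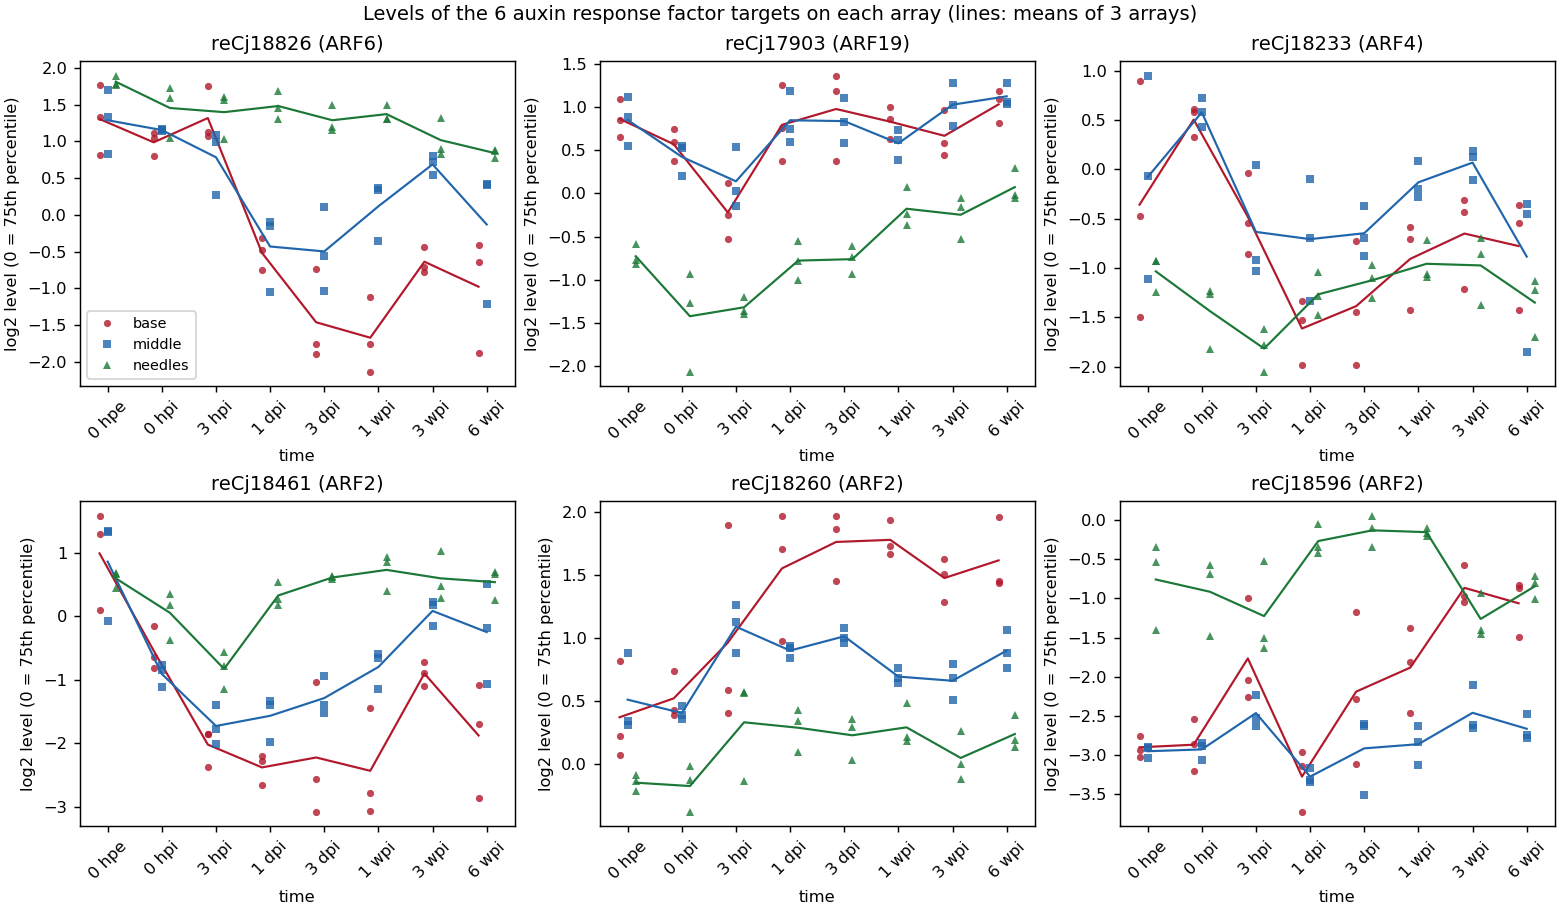
Level of each of the 6 auxin response factor targets on each array (vertical axis, log2 scale with 0 at the array's 75th percentile) at the 8 times (horizontal axis) in base (red circles), middle (blue squares) and needles (green triangles), with lines through the means of 3 arrays. At the base, reCj18826 and reCj18461 drop to group means of -1.67 and -2.43 at 1 wpi while reCj18260 stands at 1.78, and the needle arrays of reCj18826 stay between 0.77 and 1.89.

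At the base, the rooting zone, the 6 targets split. The ARF6 target reCj18826 and the ARF2 target reCj18461 fell by over 2 on the log2 scale and were still low in rooted bases, the ARF2 targets reCj18260 and reCj18596 rose, and the ARF19 and ARF4 targets reCj17903 and reCj18233 were called at a single time each. In these bulk samples, fewer cells of a type and less RNA per cell cannot be told apart. Of the 5 targets on list 1, calls against 0 hpe numbered 0, 2, 3, 2, 3, 3 and 3 from 0 hpi to 6 wpi. Over all targets of list 1, 11.2%, 30.0%, 28.8%, 26.9%, 28.9%, 26.8% and 27.5% were called at these times, so 2 of 5 at 3 hpi and 3 dpi was near the share of all targets, and since these are only 5 targets that the study chose for varying here, nothing is read from the 3 of 5 at other times. reCj18461 was called at all 7 later times, where 11.7%, 30.9%, 30.1%, 29.0%, 31.6%, 28.7% and 30.3% of list 2 were called. The median difference of the 6 targets at 6 wpi was -0.13, with 2 calls up and 2 down, and that of all targets of list 1 was 0.16.

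In the F-test over time, all 5 targets on list 1 passed at the base, as did 88.8% of list 1, and reCj18461 passed, as did 87.8% of list 2. The adjusted p ranged from 0.00416 for reCj18233 to 3.27e-09 for reCj18826. In the middle, reCj17903 and reCj18826 passed and reCj18233, reCj18260 and reCj18596 did not (adjusted p of 0.0762, 0.13 and 0.276), where 64.3% of list 1 passed, and reCj18461 passed, where 61.2% of list 2 did. In needles all 5 on list 1 passed, against 74.8% of that list, with an adjusted p of 0.0467 for reCj18260, and reCj18596 passed, against 74.0% of list 2.

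Some of these F-tests changed with the slide. With slide as a fixed block, reCj18233 and reCj18596 no longer passed at the base (adjusted p of 0.287 and 0.0668 in limma), reCj18260 and reCj18596 passed in the middle (0.00421 and 0.0392), and reCj18826 and reCj18260 no longer passed in needles (0.197 and 0.149). With a replicate block, reCj18260 no longer passed in needles (0.0606).

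reCj18826, annotated as ARF6, an activator that promotes adventitious rooting of the A. thaliana hypocotyl, kept its level at the base for the first hours and then fell. Its levels were 0.82, 1.76 and 1.33 at 0 hpe, 0.80, 1.12 and 1.04 at 0 hpi and 1.13, 1.75 and 1.07 at 3 hpi. They were -0.48, -0.75 and -0.32 at 1 dpi, -0.73, -1.89 and -1.76 at 3 dpi and -1.12, -2.13 and -1.76 at 1 wpi. All 9 of these arrays lay below every array of the first hours. The levels were -0.43, -0.77 and -0.71 at 3 wpi and -0.41, -1.88 and -0.64 in rooted bases at 6 wpi, again below all arrays of 0 hpe.

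Against 0 hpe, the log2 difference of reCj18826 at the base was 0.01 ± 0.39 (SE, n = 3 against 3) at 3 hpi and then, with the same SE, -1.82 after 1 day (adjusted p = 0.0002 in limma), -2.77 after 3 days, -2.97 after 1 week (a fold of 7.86, adjusted p = 3.28e-07 in limma), -1.94 after 3 weeks and -2.28 after 6 weeks. The fall was called at all 5 times from 1 dpi. On slide 6, which held 1 array of each group, the difference was -2.51 at 1 dpi and -2.49 at 3 dpi. With slide as a fixed block the call at 3 wpi was lost (-2.21, adjusted p = 0.0698 in limma). No array of the base at 3 hpi or at 1, 3 or 6 wpi shared a slide with one of 0 hpe, so for every target these differences lay between slides.

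In the middle, reCj18826 also fell, with levels of 0.83, 1.70 and 1.33 at 0 hpe, -0.15, -1.05 and -0.09 at 1 dpi and -0.56, -1.04 and 0.11 at 3 dpi. The differences were -1.71 (adjusted p = 0.000691 in limma) and -1.78 (adjusted p = 0.00169), each ± 0.39 (SE, n = 3 against 3), and both were called. At 1 wpi the difference was -1.17 (adjusted p = 0.0533) and at 3 wpi -0.60 (adjusted p = 0.747), neither called, although no array of these times reached the lowest of 0 hpe. The difference at 1 wpi was called in the fit of all 72 arrays (-1.17, adjusted p = 0.0147 in limma) and with normexp (-1.1, adjusted p = 0.0361). At 6 wpi the levels were 0.40, -1.21 and 0.42, so that replicate 2 stood apart from the others, and the difference of -1.42 (adjusted p = 0.0295) was called. That call was lost without middle 6 wpi replicate 2 (-0.88), without middle 0 hpe replicate 2 (-1.21) or replicate 3 (-1.40), with quantile normalization (-1.46), with slide as a fixed block (-1.42) and with only the arrays compared (-1.42). On slide 8, which held all 3 arrays of 0 hpe, the differences were -1.37, -2.33, -1.63, -0.49 and -0.87 from 1 dpi to 6 wpi.

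reCj17903, annotated as ARF19, an activator needed with ARF7 for lateral roots in A. thaliana, dipped at the base and was back within a day. Its levels at the base were 1.09, 0.65 and 0.85 at 0 hpe, -0.25, 0.12 and -0.53 at 3 hpi and 0.37, 0.76 and 1.25 at 1 dpi. The arrays of 3 hpi lay below all others at the base, and those of 1 dpi overlapped those of 0 hpe. The difference at 3 hpi was -1.08 ± 0.23 (SE, n = 3 against 3, adjusted p = 0.000205 in limma), the only one called, and the others were between -0.29 and 0.16. It was just under the size required for a call without base 0 hpe replicate 1 (-0.97), without base 3 hpi replicate 3 (-0.93) and with normexp background correction (-0.97), and with slide as a fixed block it missed both the size and the threshold (-0.93, adjusted p = 0.0978 in limma). In the middle the levels at 3 hpi were -0.15, 0.03 and 0.54, below the 1.11, 0.55 and 0.89 of 0 hpe, and the difference was -0.71 (adjusted p = 0.0142), too small for a call.

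reCj18233, annotated as ARF4, a repressor that acts with ARF3 on leaf polarity in A. thaliana, had widely spread levels at excision. At 0 hpe they were -1.50, -0.47 and 0.90 at the base, and the middle of the stem had -1.11, -0.07 and 0.95. The order of the replicates was the same in both parts. At 0 hpi the arrays lay close together, with 0.58, 0.33 and 0.61 at the base, while the middle had 0.43, 0.58 and 0.73. At 1 dpi the base arrays stood at -1.53, -1.98 and -1.33, which overlapped 0 hpe, with a called difference of -1.26 ± 0.47 (SE, n = 3 against 3, adjusted p = 0.0228 in limma). The call rested on single arrays, and was lost without base 0 hpe replicate 3 (-0.63), without base 1 dpi replicate 2 (-1.07), with normexp (-0.97), with slide as a fixed block (-0.97) and with only the arrays compared (-1.26). At 3 dpi the difference was -1.03 (adjusted p = 0.0621) and in the middle it was between -0.81 and 0.66 at all times, with no call. The fall at the base at 3 dpi was called in the fit of all 72 arrays (-1.03, adjusted p = 0.0272 in limma) and with quantile normalization (-1.18). It was also called without base 0 hpe replicate 1 (-1.6) or base 3 dpi replicate 1 (-1.36). Without base 0 hpe replicate 3, a rise at the base at 0 hpi was called (1.5).

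reCj18461 is annotated as ARF2, a repressor that limits growth and promotes ageing of leaves in A. thaliana. It was the first of the 6 targets to fall and had the largest fall at the base. Its levels there were 1.58, 1.29 and 0.10 at 0 hpe, -0.82, -0.16 and -0.65 at 0 hpi, -1.85, -2.37 and -1.85 at 3 hpi and -2.21, -2.66 and -2.28 at 1 dpi. They were -1.03, -3.08 and -2.57 at 3 dpi, -1.45, -2.79 and -3.07 at 1 wpi, -0.72, -1.10 and -0.89 at 3 wpi and -1.70, -2.86 and -1.08 at 6 wpi. No array of any later time reached the lowest array of 0 hpe, and the arrays of 3 wpi were higher than all those of 3 hpi, 1 dpi and 1 wpi.

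The difference of reCj18461 from 0 hpe at the base was -1.53 ± 0.46 (SE, n = 3 against 3) at 0 hpi (adjusted p = 0.0144 in limma). It was then, with the same SE, -3.01 after 3 hours, -3.37 and -3.22 after 1 and 3 days, -3.42 after 1 week (a fold of 10.7, adjusted p = 4.7e-07 in limma), -1.89 after 3 weeks and -2.87 after 6 weeks. The signals at 1 wpi were 204, 28.9 and 21.1, and 1 array of that group had spots not well above background. The size of the fall at 1 wpi thus rests in part on arrays with low signals. The first of these was lost without base 0 hpe replicate 1 (-1.23) or replicate 2 (-1.38), without base 0 hpi replicate 1 (-1.39), with quantile normalization (-1.59), with slide as a fixed block (-1.53) and with only the arrays compared (-1.53). With slide as a fixed block the calls at 3 wpi (-1.83, adjusted p = 0.357) and 6 wpi (-2.81, adjusted p = 0.16) were lost too. Within slides, the difference at 0 hpi was -1.57 on slide 5 and -1.44 on slide 6, and on slide 6 it was -3.95 at 1 dpi and -2.32 at 3 dpi.

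In the middle reCj18461 also fell from 0 hpi on, and was no longer called at 3 and 6 wpi. Its levels were 1.32, 1.34 and -0.08 at 0 hpe, -2.02, -1.77 and -1.40 at 3 hpi, -0.66, -0.59 and -1.15 at 1 wpi and -0.15, 0.18 and 0.22 at 3 wpi. The arrays of 3 wpi overlapped those of 0 hpe, those of 3 hpi and 1 wpi did not. The differences from 0 hpi to 1 wpi were -1.77, -2.59, -2.43, -2.15 and -1.66, all called and each ± 0.46 (SE, n = 3 against 3), and then -0.78 at 3 wpi (adjusted p = 0.734 in limma) and -1.11 at 6 wpi (adjusted p = 0.166), not called. The call at 0 hpi was lost without middle 0 hpe replicate 1 (-1.54) and with quantile normalization (-1.83). That at 1 wpi was lost without middle 0 hpe replicate 1 (-1.43) or 2 (-1.42), without middle 1 wpi replicate 1 (-1.73) or 3 (-1.49), with quantile normalization (-1.71), with slide as a fixed block (-1.53) and with only the arrays compared (-1.66). On slide 8 the differences were -2.20, -2.26, -2.02, -0.65 and -0.35 from 1 dpi to 6 wpi. No array of the middle at 0 hpi or 3 hpi lay on slide 8, which held all those of 0 hpe, so the differences at these times lay between slides.

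The photosynthesis markers were also lower at the base when reCj18461 and reCj18826 had fallen. The summed level of the 4 targets was 157 to 260 at excision, 13.8 to 27.4 at 3 hpi, when reCj18826 had not moved, and 5.74 to 21.8 at 1 wpi, and in the middle it was 170 to 344 at excision and 69.4 to 96.6 at 1 wpi. Their part in the falls was not tested. The root patterning targets did not follow the same course, since the SHORT-ROOT targets reCj23597 and reCj24821 were at their lowest at the base at 0 hpe (means of -4.12 and -3.22) and at their highest at 1 wpi (-1.87 and -1.44), while the SCARECROW target reCj20794 was lowest at 3 hpi (-1.97).

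reCj18260, also annotated as ARF2, rose at the base and stayed up. Its levels were 0.22, 0.07 and 0.82 at 0 hpe, 0.43, 0.74 and 0.39 at 0 hpi, 0.59, 1.90 and 0.40 at 3 hpi and 0.98, 1.71 and 1.97 at 1 dpi. They were 1.97, 1.87 and 1.45 at 3 dpi, 1.67, 1.73 and 1.94 at 1 wpi, 1.51, 1.29 and 1.63 at 3 wpi and 1.45, 1.96 and 1.44 at 6 wpi. All 15 arrays from 1 dpi on lay above the 3 of 0 hpe. The differences were 1.18 after 1 day (adjusted p = 0.000181 in limma), 1.39 after 3 days, 1.41 after 1 week (a fold of 2.66, adjusted p = 2.3e-05), 1.10 after 3 weeks and 1.25 after 6 weeks, all called and each ± 0.25 (SE, n = 3 against 3).

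The rise of reCj18260 fell just short of a call at 1 dpi without base 1 dpi replicate 3 (0.97) and at 3 wpi without base 0 hpe replicate 2 (0.95). With slide as a fixed block it was 0.73 at 3 wpi (adjusted p = 0.517 in limma) and 0.87 at 6 wpi (adjusted p = 0.422), not called, while on slide 6 it was 1.64 at 1 dpi and 1.90 at 3 dpi. In the middle the group means of reCj18260 stayed between 0.40 and 1.09, and no difference from 0 hpe was called (-0.11 to 0.58).

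reCj18596, the remaining ARF2 target, had its called rises at 3 hpi and from 1 wpi on. Its levels at the base were -3.02, -2.93 and -2.75 at 0 hpe, -2.04, -1.0 and -2.26 at 3 hpi and -3.72, -3.14 and -2.96 at 1 dpi. The arrays of 3 hpi lay above all of 0 hpe, while those of 1 dpi overlapped them. They were -1.18, -3.11 and -2.28 at 3 dpi, -1.81, -2.46 and -1.38 at 1 wpi, -0.97, -1.05 and -0.58 at 3 wpi and -0.87, -1.49 and -0.83 at 6 wpi, and from 1 wpi on the arrays lay above all of 0 hpe.

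The differences of reCj18596 at the base were 1.13 at 3 hpi (adjusted p = 0.00395 in limma), -0.37 at 1 dpi (not called), 0.71 at 3 dpi (adjusted p = 0.068, not called), 1.02 at 1 wpi (adjusted p = 0.00918), 2.03 at 3 wpi (a fold of 4.09, adjusted p = 6.26e-06) and 1.83 at 6 wpi (adjusted p = 2.64e-05), each ± 0.33 (SE, n = 3 against 3). The call at 3 hpi was lost without base 3 hpi replicate 2 (0.75), with normexp (0.76), with slide as a fixed block (1.63) and with only the arrays compared (1.13). The call at 1 wpi was lost without base 0 hpe replicate 1 (0.96), without base 1 wpi replicate 1 (0.98) or 3 (0.77), with quantile normalization (0.50), with normexp (0.95) and with slide as a fixed block (1.52). The later rises were lost only with slide as a fixed block (2.15 at 3 wpi and 1.95 at 6 wpi, adjusted p of 0.109 and 0.146). In the middle, the arrays stayed between -3.51 and -2.11 and no difference was called (-0.32 to 0.49).

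**Figure D2:**
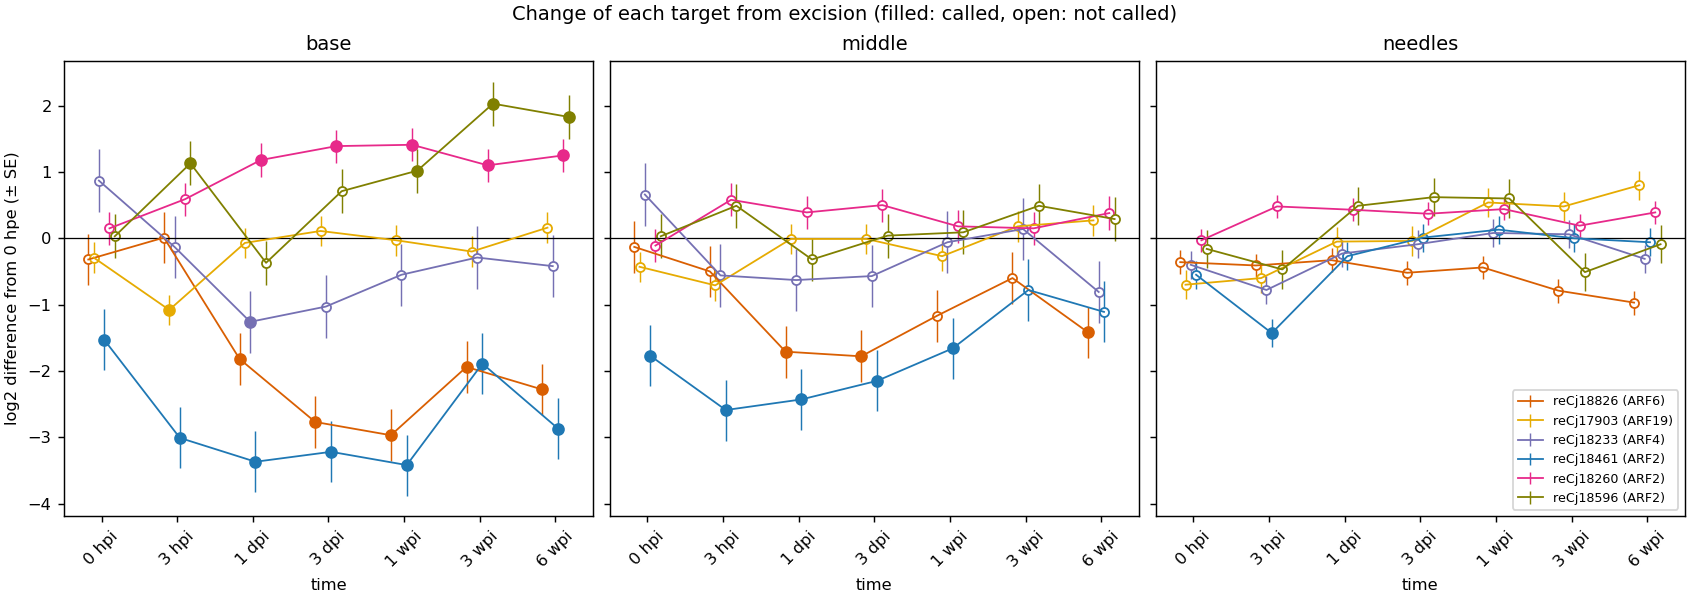
Log2 difference from 0 hpe (vertical axis, with SE bars from the limma fit) at the 7 later times (horizontal axis) for each of the 6 targets at the base, in the middle and in needles, with filled points for called differences. At the base, 2 targets end below -2 and 2 above 1 at 6 wpi, whereas in needles the only filled point is reCj18461 at 3 hpi (-1.43).

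Across the middle, only reCj18826 and reCj18461 were called, both downwards. reCj17903 and reCj18233, each called lower at the base at a single time, were not called in the middle. Of the 5 targets on list 1, none was called at 0 hpi, 3 hpi, 1 wpi or 3 wpi and 1 (reCj18826) at 1 dpi, 3 dpi and 6 wpi, against 9.77%, 19.7%, 4.21% and 0.073% of list 1 at the former times and 19.8%, 9.14% and 1.86% at the latter. reCj18461 was called at 0 hpi, 3 hpi, 1 dpi, 3 dpi and 1 wpi, when 10%, 19.9%, 21.3%, 9.32% and 4.23% of list 2 were called.

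Between base and middle, no difference was called in any of the 6 targets up to 3 dpi, and the called ones lay at 1, 3 and 6 wpi. At 0 hpe the differences of base minus middle were between -0.28 and 0.13. At 3 dpi reCj18260 had a difference of 0.75 (adjusted p = 0.0239 in limma), under the size for a call. Of the 5 targets on list 1, 0 were called at 0 hpe, 0 hpi, 3 hpi, 1 dpi and 3 dpi, when 0.0104%, 0.104%, 4.95%, 5.83% and 10.9% of list 1 were. At 1 wpi 2 were called (18.2% of list 1), at 3 wpi 2 (21.1%) and at 6 wpi 1 (22.4%). reCj18461 was called at 1 wpi and 6 wpi, when 21.2% and 25.3% of list 2 were.

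The ARF6 target reCj18826 was lower at the base than in the middle at 1 wpi by a log2 difference of -1.79 (adjusted p = 0.000653 in limma) and at 3 wpi by -1.32 (adjusted p = 0.00595), each ± 0.39 (SE, n = 3 against 3), with the arrays apart at both. With normexp the difference at 1 wpi was -1.17, still called. reCj18461 was lower at the base by -1.63 ± 0.46 at 1 wpi (adjusted p = 0.00554) and again by -1.63 at 6 wpi (adjusted p = 0.00441), with the arrays apart. At 1 wpi its difference was -0.66 with normexp, not called, and -2.56 with quantile normalization. At 6 wpi the call was lost without base 6 wpi replicate 2 (-1.14), without middle 6 wpi replicate 3 (-1.25) and with only the arrays compared (-1.63).

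The ARF2 targets reCj18260 and reCj18596 were higher at the base. reCj18260 was called at 1 wpi only, with a difference of 1.09 ± 0.25 (SE, n = 3 against 3, adjusted p = 0.00109 in limma), and its arrays were apart at every time from 1 dpi to 6 wpi. That call was lost with quantile normalization and with normexp (0.90 with either). reCj18596 was higher at the base by 1.59 at 3 wpi (adjusted p = 0.000227) and 1.60 at 6 wpi (adjusted p = 0.00021), each ± 0.33, with the arrays apart.

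Whether the change since 0 hpe itself differed between base and middle was tested as the difference of the changes. It was called for reCj18826 at 1 wpi (-1.81 ± 0.55, SE, adjusted p = 0.029 in limma), for reCj18260 at 1 wpi (1.23 ± 0.35, adjusted p = 0.023), for reCj18596 at 3 wpi (1.54 ± 0.46, adjusted p = 0.0174) and 6 wpi (1.55 ± 0.46, adjusted p = 0.016) and for reCj18461 at 6 wpi (-1.75 ± 0.65, adjusted p = 0.046). The targets on list 1 gave 0 of 5 calls at 0 hpi, 3 hpi, 1 dpi and 3 dpi (0.0%, 0.198%, 0.0417% and 2.05% of list 1), 2 at 1 wpi (9.27%), 1 at 3 wpi (14.0%) and 1 at 6 wpi (15.7%). For reCj18461 at 6 wpi, 17.5% of list 2 were called.

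All but 1 of these calls were lost in some fit that left out a single array. For reCj18596 the call at 3 wpi was lost without base 3 wpi replicate 3 (1.40) and with quantile normalization (1.49), and that at 6 wpi only with quantile normalization (1.29). For reCj18260 it was lost without base 0 hpe replicate 2 (1.08), without base 1 wpi replicate 3 (1.15) and without middle 0 hpe replicate 3 (1.05). For reCj18826 it was lost without base 0 hpe replicate 2 (-1.58), base 1 wpi replicate 2 (-1.58) or 3 (-1.76), middle 0 hpe replicate 1 (-1.58) or middle 1 wpi replicate 1 (-1.69) or 2 (-1.70), and with normexp (-1.19). For reCj18461 it was lost without base 0 hpe replicate 1 (-1.46) or 2 (-1.61), base 6 wpi replicate 1 (-1.85) or 2 (-1.27), middle 0 hpe replicate 3 (-1.28) or middle 6 wpi replicate 1 (-1.72) or 3 (-1.38), and with quantile normalization (-2.42), normexp (-1.36) and only the arrays compared (-1.75). Over the 6 targets and 7 times, the paired fit, with the replicate number of the sample label as a replicate block, gave 8 calls in place of 5. The labels do not say that equal numbers mark the same cutting. The calls gained were reCj18461 at 1 wpi (-1.76, adjusted p = 0.00452 in limma, against 0.0614 without the block) and 3 wpi (-1.11, adjusted p = 0.0274) and reCj18826 at 3 wpi (-1.34, adjusted p = 0.00853).

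In needles 1 of the 42 differences from 0 hpe was called, that of the ARF2 target reCj18461 at 3 hpi. Its levels were 0.68, 0.45 and 0.66 at 0 hpe, -0.78, -0.57 and -1.14 at 3 hpi and 0.27, 0.17 and 0.54 at 1 dpi. The arrays of 3 hpi lay below all others in needles, and the difference was -1.43 ± 0.21 (SE, n = 3 against 3, a fold of 2.70, adjusted p = 9.79e-05 in limma). From 3 dpi on its difference from 0 hpe was between -0.06 and 0.13. No needle array of 3 hpi or of 1, 3 or 6 wpi shared a slide with one of 0 hpe, so for every target these differences lay between slides. Of the 5 targets on list 1, 0, 1, 0, 0, 0, 0 and 0 were called from 0 hpi to 6 wpi, against 9.76%, 9.19%, 3.77%, 1.45%, 1.47%, 10% and 13% of list 1.

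Below the size for a call, the ARF6 target was lower and the ARF19 target higher in needles at 6 wpi. reCj18826 stood at 1.78, 1.76 and 1.89 at 0 hpe and at 0.87, 0.88 and 0.77 at 6 wpi, without overlap, a difference of -0.97 ± 0.18 (SE, n = 3 against 3, adjusted p = 0.000457 in limma). With slide as a fixed block, its F-test over time in needles did not pass (adjusted p = 0.197 in limma). reCj17903 stood at -0.82, -0.59 and -0.77 at 0 hpe, at -2.06, -1.27 and -0.93 at 0 hpi and at -0.02, -0.05 and 0.29 at 6 wpi. Its arrays of 6 wpi lay above all of 0 hpe, with a difference of 0.80 ± 0.22 (adjusted p = 0.00731). reCj18233 stayed between -2.05 and -0.69, reCj18260 between -0.38 and 0.57 and reCj18596 between -1.64 and 0.05.

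Needles and stem base already differed at excision in 2 targets. The ARF19 target reCj17903 was lower in needles at 0 hpe (-0.82, -0.59 and -0.77, against 1.09, 0.65 and 0.85 at the base), a difference of -1.59 ± 0.23 (SE, n = 3 against 3, adjusted p = 2.18e-07 in limma). The ARF2 target reCj18596 was higher in needles (-0.54, -1.40 and -0.34, against -3.02, -2.93 and -2.75), by 2.14 ± 0.32 (adjusted p = 4.01e-07). The arrays were apart for both, and within slides 5 and 6 the differences were -1.77 and -1.23 for reCj17903 and 2.45 and 1.53 for reCj18596. Of the 4 targets on list 1 for all arrays, 1 was called (22.7% of list 1), and reCj18596 was tested on list 2 (25.3% called).

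At 6 wpi, needles and rooted bases differed in other targets. reCj18826 was higher in needles by 1.82 ± 0.34 (SE, n = 3 against 3, adjusted p = 1.05e-05 in limma) and reCj18260 lower by -1.38 ± 0.23 (adjusted p = 1.35e-06), the 2 calls among 4 targets on list 1 (27.6% of list 1). reCj18461 was higher in needles by 2.42 ± 0.40 (adjusted p = 1.38e-06, 31.0% of list 2 called). Arrays were apart for all 3, and on slides 1 and 4 the differences were 1.29 and 2.09 for reCj18826, -1.32 and -1.41 for reCj18260 and 1.95 and 2.65 for reCj18461. reCj18596, higher in needles at excision, differed by 0.22 ± 0.32 (adjusted p = 0.572), and reCj17903 by -0.96 (adjusted p = 0.000426), under the size for a call with the arrays apart.

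The change since excision differed between needles and base, at 1 or more times, in reCj18826, reCj18461, reCj18596 and reCj18260. The share of all targets called at 1 or more times was not computed, so nothing is read from their number. For the ARF6 target reCj18826, the change in needles minus that at the base was 1.49 after 1 day (adjusted p = 0.0108 in limma), 2.24 after 3 days, 2.53 after 1 week (adjusted p = 5.47e-05), 1.15 after 3 weeks (adjusted p = 0.0402) and 1.31 after 6 weeks (adjusted p = 0.0196), each ± 0.48 (SE). For reCj18461 it was 1.58 after 3 hours (adjusted p = 0.026), 3.10 and 3.23 after 1 and 3 days, 3.55 after 1 week (adjusted p = 5.34e-06), and 1.89 and 2.81 after 3 and 6 weeks, each ± 0.56. For reCj18596 it was -1.60 after 3 hours, -2.54 after 3 weeks and -1.92 after 6 weeks, each ± 0.45, and for reCj18260 -1.02 ± 0.32 at 3 dpi (adjusted p = 0.0104). reCj17903 and reCj18233 had no called difference of changes (-0.40 to 0.68 and -1.27 to 1.02).

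Of the 4 targets on list 1 for all arrays, calls of this kind numbered 0, 0, 1, 2, 1, 1 and 1 from 0 hpi to 6 wpi, against 5.96%, 22.5%, 25.4%, 23.9%, 24.9%, 34.1% and 32.8% of list 1. On list 2, which held reCj18461 and reCj18596, 23.4%, 26.4%, 25.4%, 27.2%, 36.4% and 35.4% were called from 3 hpi on. Base and needle arrays of a time lay on the same slides. All 15 calls were kept with slide as a fixed block, but a slide effect common to both parts cancels from this difference, so that fit could hardly change it.

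Some of these calls depended on single arrays. reCj18826 lost its call at 6 wpi without base 0 hpe replicate 2 (1.09), without base 6 wpi replicate 2 (0.86) and with only the arrays compared (1.31), and at 3 wpi without base 0 hpe replicate 2 (0.92) or 3 (1.13), base 3 wpi replicate 2 (1.08) or 3 (1.11), needle 0 hpe replicate 1 (1.13), 2 (1.12) or 3 (1.19) or needle 3 wpi replicate 3 (1.00), and with quantile normalization (1.14). reCj18461 lost its call at 3 hpi without base 0 hpe replicate 1 (1.29) or 2 (1.43), base 3 hpi replicate 2 (1.41) or needle 3 hpi replicate 2 (1.45), with quantile normalization (1.49) and with only the arrays compared (1.58), and at 3 wpi with quantile normalization (1.89). reCj18596 lost its call at 3 hpi with only the arrays compared (-1.60). reCj18260 lost its call without base 0 hpe replicate 1 (-0.94) or 2 (-0.87), base 3 dpi replicate 1 (-0.91) or 2 (-0.96), needle 0 hpe replicate 1 (-0.99) or needle 3 dpi replicate 3 (-0.92), with quantile normalization (-0.84), with normexp (-0.90) and in the paired fit with a replicate block (-1.02).

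**Figure D3:**
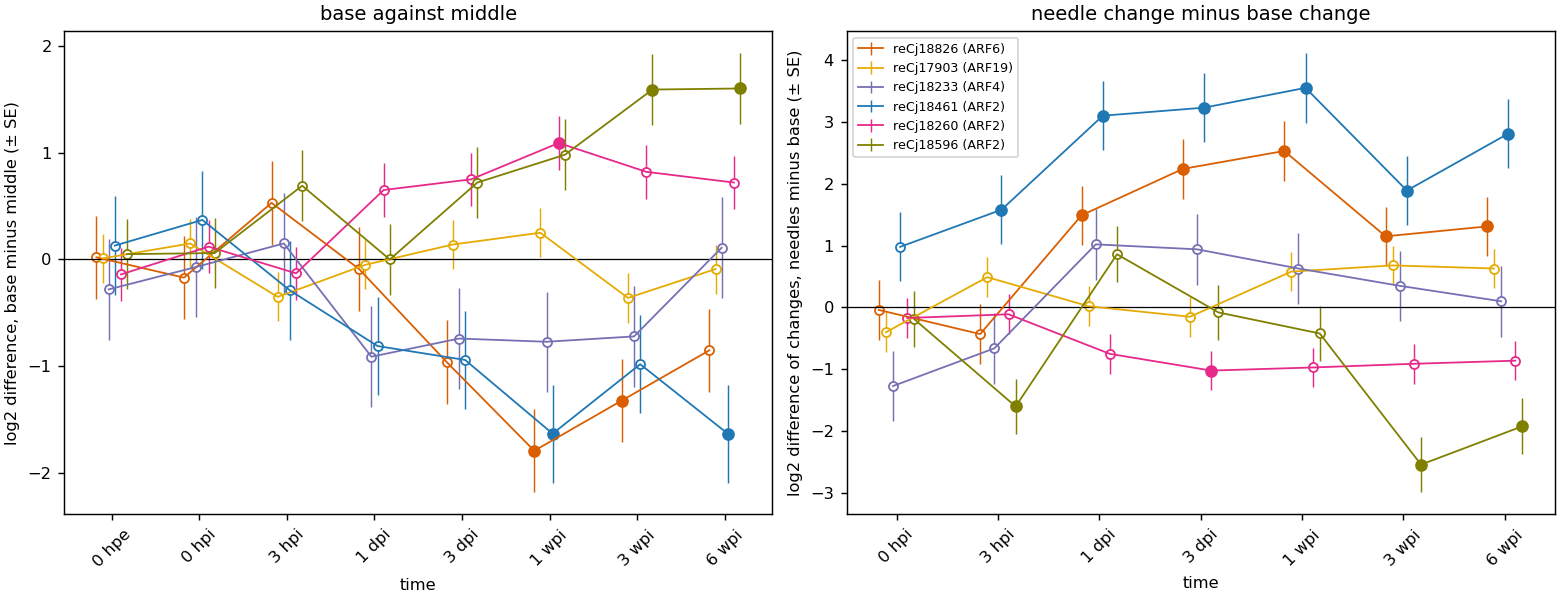
Left, log2 difference of base minus middle at the 8 times, and right, change since 0 hpe in needles minus that at the base at the 7 later times, for each of the 6 targets with SE bars and filled points for called differences. The left panel starts near 0 for all targets (-0.28 to 0.13 at 0 hpe) and opens by 1 wpi, and on the right reCj18461 reaches 3.55 at 1 wpi while reCj18596 drops to -2.54 at 3 wpi.

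The 3 targets annotated as ARF2 did not share a profile. Over the 24 group means, Pearson's r was -0.84 between reCj18260 and reCj18461, -0.35 between reCj18260 and reCj18596 and 0.38 between reCj18461 and reCj18596. reCj18461 ran with the ARF6 target reCj18826 (r = 0.73) and reCj18260 ran against it (r = -0.89). These values describe 24 points that share arrays and 3 parts, and the level of 1 target cannot be set against that of another, since each has its own probe. At 0 hpe, needles minus base was 2.14 for reCj18596 and -0.52 for reCj18260 (adjusted p = 0.0516 in limma).

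**Figure D4:**
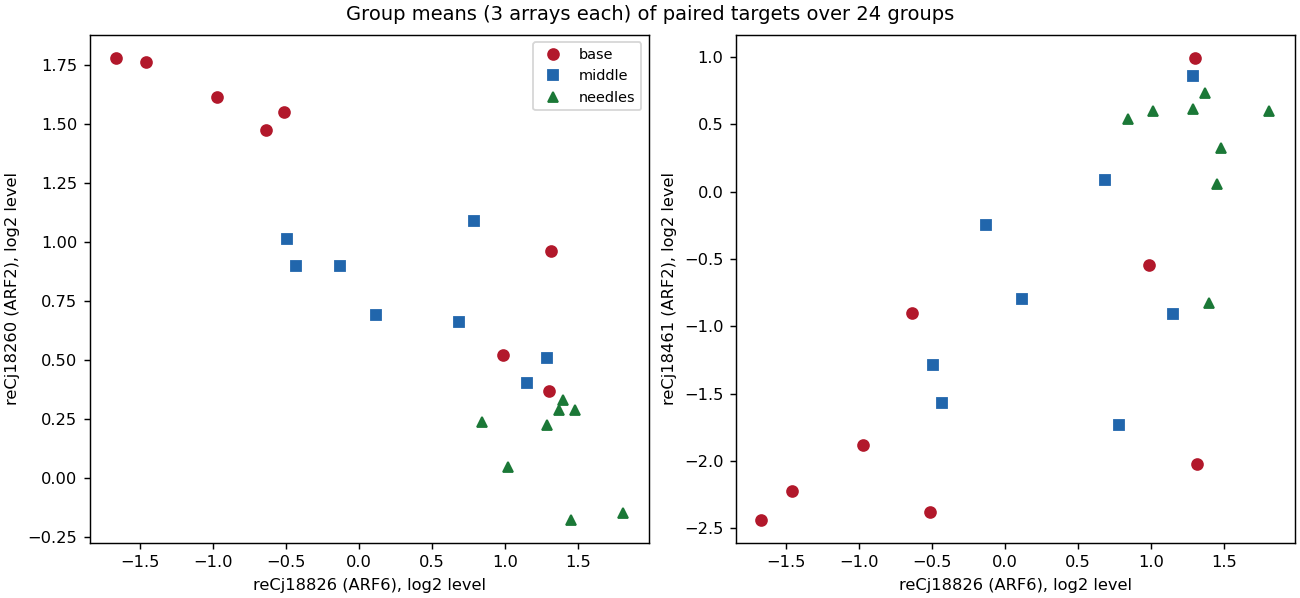
Group means of reCj18826 (horizontal axis, log2 level) against reCj18260 (left) and reCj18461 (right, vertical axes, log2 level), 1 point for each of the 24 groups of 3 arrays, in base (red circles), middle (blue squares) and needles (green triangles). Points fall from upper left to lower right on the left (r = -0.89) and climb on the right (r = 0.73), with the base groups after 3 hpi at the low end of reCj18826.

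Of the 5 other ARF targets, all on list 1, none was called at the base against 0 hpe up to 1 wpi, 1 was at 3 wpi and 2 at 6 wpi, and none was in the middle or in needles at any time. Of all targets of list 1, 26.8% were called at the base at 3 wpi and 27.5% at 6 wpi, and between 11.2% and 30.0% at the earlier times. reCj17966, the second ARF19 target, rose at the base at 6 wpi by 1.18 ± 0.32 (SE, n = 3 against 3, adjusted p = 0.00222 in limma), where reCj17903 differed by 0.16. reCj19155, the second ARF4 target, fell at the base by -1.11 at 3 wpi (adjusted p = 0.00715) and -1.01 at 6 wpi (adjusted p = 0.0129), where reCj18233 had -0.29 and -0.42. Of the other ARF2 targets, reCj18164 was above the middle at the base at 3 wpi by 1.2 (adjusted p = 0.00521) and reCj18202 had no call in any comparison. reCj18418, annotated as ARF16, a factor of root cap formation in A. thaliana, was lower in needles than at the base at 6 wpi by -1.08 (adjusted p = 1.43e-05).

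Around the ARFs, 17 targets were taken as an auxin pathway list, 13 of them on list 1 for base and middle. They were PIN, AUX1 and LAX3 auxin carriers, Aux/IAA repressors, SAUR and GH3 targets from families that hold auxin-responsive genes, BIG and an aldehyde oxidase. The supplement that annotates them lists targets that varied on these same arrays. The list is not complete and not independent of these data, so nothing is read from its counts beside the shares of all targets. At the base 4 of the 17 were called higher and 1 lower at 0 hpi, 4 and 5 at 3 hpi, 3 and 5 after 1 day, 3 and 4 after 3 days, 3 and 3 after 1 week, 0 and 3 after 3 weeks and 1 and 5 after 6 weeks. Of the 13 on list 1, 3, 7, 6, 5, 4, 2 and 4 were called from 0 hpi to 6 wpi, against 11.2%, 30.0%, 28.8%, 26.9%, 28.9%, 26.8% and 27.5% of that list. The median difference of the 17 at 6 wpi was -0.57, against 0.16 for all targets of list 1. In the middle 3, 3, 3 and 1 were called higher and 1, 4, 4 and 2 lower from 0 hpi to 3 dpi, and 0 at 1, 3 and 6 wpi. Of those on list 1, 3, 5, 4 and 2 of 13 were called up to 3 dpi, against 9.77%, 19.7%, 19.8% and 9.14% of list 1. At 1, 3 and 6 wpi, 4.21%, 0.073% and 1.86% of list 1 were called in the middle. In needles 16 of the list were tested, with 3 higher and 1 lower at 0 hpi, 1 lower at 3 hpi and 1 higher at 3 wpi and at 6 wpi, against 9.76%, 9.19%, 10% and 13% of list 1 at these 4 times. At 1 dpi, 3 dpi and 1 wpi 0 were called, against 3.77%, 1.45% and 1.47%.

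The called rise at the base at 6 wpi was reCj22862, by 3.19 ± 0.77 (SE, n = 3 against 3, adjusted p = 0.000852 in limma). It is a GH3 target, annotated as DFL2, of the family that conjugates auxin and jasmonate to amino acids. The largest called falls in the list were the SAUR target reCj28373 (-2.16 ± 0.40, adjusted p = 3.75e-05) and the aldehyde oxidase reCj18051 (-2.08 ± 0.35, adjusted p = 1.22e-05). In needles at 6 wpi the single call was reCj23831, a GH3 target annotated as JAR1, which rose by 1.08 ± 0.26 (adjusted p = 0.0035). The arrays were apart in all 4.

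The targets nearest in profile to each ARF target, by Pearson's r over the 24 group means, are given as a description. For reCj18461 they were reCj25382, annotated as an exonuclease family protein (r = 0.952), and reCj22521, annotated as the homeobox protein KNAT3 (r = 0.948). For reCj18826 they were reCj28092, annotated as tetraspanin 8 (r = 0.929), and reCj32157, annotated as a calcium-dependent lipid-binding protein (r = 0.928). For reCj17903 they were reCj18832, annotated as the tRNA-processing enzyme TRZ4 (r = 0.953), and reCj17959 (r = 0.951), and for reCj18233 reCj23966, annotated as a cytochrome b561 family protein (r = 0.926), and reCj19706 (r = 0.917). Those of reCj18260 were reCj25777 (r = 0.959) and reCj26260 (r = 0.958) and those of reCj18596 were reCj12742 (r = 0.941) and reCj18936 (r = 0.915), none of them named in the tables used here.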

How the data were processed

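Per the labels and the methods, total RNA of each sample was amplified, labelled with Cy3 and hybridized to a custom array with 3 or 4 spots per target. The authors deposited the intensity of every spot from Agilent Feature Extraction 11.5, background-subtracted and with detection flags, without normalization between arrays. They also deposited log2 values scaled to the 75th percentile, which equals the recomputed values to within 0.00451 when all spots are averaged and each target is centred. The centring is inferred from this match, and the medians of the deposited columns ran from -0.29 to 0.55. No columns were left without a sample.

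Spots with a non-uniformity flag were left out, the others were averaged per target, and from the log2 of the mean that of the 75th percentile over the targets of the same array was subtracted. List 1 held targets with no flagged spot, all spots well above background, and on each array of the dataset a mean above 10 (9592, 12523 or 9175 targets), and list 2 those with positive and significant spots. The 48 arrays of base and middle, the 24 of needles and all 72 were fitted separately, without a block, by lmFit and eBayes of limma 3.58.1 (R 4.3.3, with version 1.17.8 of data.table). Comparisons against 0 hpe share its arrays. P-values were adjusted by Benjamini-Hochberg over all targets tested, and differences of at least 1 on the log2 scale whose adjusted p was under 0.05 were called. "Apart" or "above" of arrays means that the values of the 2 groups did not overlap. The fit was tested on simulated data with known changes. Summaries and plots were made with matplotlib 3.10.9, NumPy 2.4.6 and pandas 2.3.3 under Python 3.11.15.

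The 6 targets and all lists were chosen with earlier results of these data known. Named in every comparison were the 6 targets, with the 5 other ARF targets by counts and where they share an annotation, the pathway list by counts and its 2 largest called rises and falls at 6 wpi, and the 2 nearest profiles of each target. Annotations were those of the study's supplement, from the best A. thaliana protein match. The slides are those of the scanner files. Samples of a group came from 3 cuttings of 1 clone, and the number of arrays limits the precision. Normalization, background correction, filters, spots, the arrays fitted, blocks and left-out arrays were varied.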

Additional observations from a re-analysis of the deposited data

Results flagged for a closer look

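The change since excision differed between base and middle, by the limma test of the difference of changes, at 1 or more times for 4 of the 6 targets. The share of all targets called at 1 or more times was not computed, so nothing is read from the 4 of 6. The base minus the middle gave -1.81 for reCj18826 and 1.23 for reCj18260 at 1 wpi, 1.54 for reCj18596 at 3 wpi, and 1.55 for reCj18596 and -1.75 for reCj18461 at 6 wpi. In the paired fit, with a replicate block, these 5 calls stood and 3 were added, reCj18461 at 1 wpi (-1.76) and 3 wpi (-1.11) and reCj18826 at 3 wpi (-1.34). Slide and part cannot be told apart here.

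The change also differed between needles and base, where both parts shared slides. Needles minus base gave 1.58 for reCj18461 and -1.60 for reCj18596 at 3 hpi, 3.10 for reCj18461 and 1.49 for reCj18826 at 1 dpi, and 3.23 for reCj18461, 2.24 for reCj18826 and -1.02 for reCj18260 at 3 dpi. At 1 wpi it was 3.55 for reCj18461 and 2.53 for reCj18826. At 3 wpi it was 1.89 for reCj18461, 1.15 for reCj18826 and -2.54 for reCj18596, and at 6 wpi 2.81, 1.31 and -1.92 for the same targets. Groups held 3 arrays, too few for the search for single outlying arrays.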

How the results depend on the processing

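The 6 targets had 64 called differences, of which 34 kept their call under every alternative run and none turned its direction. With all spots averaged, the deposited log2 table, list 2 for all targets, no filter, the fit of all 72 arrays and slide as a random block no call was lost, the last being close to the fit without it (correlation 0.00456). Quantile normalization lost 13 calls, normexp on median signals (chosen after the data were seen) 9, only the arrays compared 10, slide as a fixed block 14 of 52, the replicate block 1, and leaving out 1 array lost 19 calls in at least 1 fit. The fixed slide block could hardly change the differences between needles and base, whose arrays shared slides.

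As totals over targets and times, slide as a fixed block took the base against 0 hpe from 23 calls to 11, and in the middle the targets that passed the F-test over time from 3 to 5. Quantile normalization took the middle against 0 hpe from 8 to 5, the difference of changes between base and middle from 5 to 2, and needles against 0 hpe from 1 to 2. Normexp took that difference of changes to 3 and the replicate block to 8. Leaving out 1 array gave 21 to 24 calls for the base against 0 hpe, 6 to 8 for the middle, 6 to 9 for base against middle, 2 to 8 for their difference of changes, 1 for needles, 5 to 6 for needles against base and 11 to 18 for the difference of changes between needles and base. The lowest count of 2 came without base 0 hpe replicate 2, and counts of 3 came without base 1 wpi replicate 3 or middle 0 hpe replicate 3, and 8 without base 0 hpe replicate 3.

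Same-numbered base and middle arrays deviated together at 0 hpe (r of 0.748 to 0.947) but not at every time, so the numbers were not taken to pair the cuttings. In the paired fit, the replicate block changed the call of reCj18260 at 3 dpi in the difference of changes between needles and base, and of the totals above only that for base and middle by over 1.5 times. Quantile normalization moved the median difference of all targets at the base at 1 wpi from 0.15 to 0.03. Normexp on mean signals was not run, since the files used hold median signals. Only reCj18461 had spots not well above background, on 1 array of base at 1 wpi, a group with signals of 204, 28.9 and 21.1. Low signals were also found at the base at 3 dpi, with 27.2 for reCj18461 and 33.3 for reCj18596 on replicate 3.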
